A study of Mus musculus with 4 samples.

Results

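The p53 family, its MDM regulators and 5 of its best known target genes were followed in wt and Top2β-null mouse embryonic fibroblasts (MEF cells). The 10 genes were selected by name from the 54842 genes of the deposited count table, with earlier results of the same comparison known. Their values are therefore given as a description, with no p, and counts of members past a cut-off are descriptions too. They are Trp53, Trp63 and Trp73 (the family), Mdm2 and Mdm4 (the regulators), and Cdkn1a, Bbc3, Pmaip1, Eda2r and Zmat3 (the targets). Of the 10, 9 passed the filter on low counts (10 or more counts in 2 or more libraries), and Trp73 did not.

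RNA-seq of total RNA without ribosomal RNA was available for 2 libraries of wild-type MEF cells and 2 libraries of MEF cells null for topoisomerase 2β, an enzyme that relieves torsion in DNA by passing one duplex through a break in another. All 4 libraries came from untreated cells kept in the same medium, and the comparison was made to look for a topological influence on the transcription of major satellite repeats. The wt MEF cells and the Top2β-null MEF cells, which were derived from null mice and received as a gift, are traced to different sources. Genotype and origin of the cells therefore cannot be told apart, and no source used here states how either culture was immortalised. Nothing says that the 2 libraries of a genotype came from separate cultures, so errors and p-values measure the spread between these libraries, which may be technical. Library totals ranged from 133116830 to 149647278 counts, and values below are counts normalized for library size. Top2b itself, the targeted gene, had a mean of 18362 in wt and 3834 in Top2β-null cells, which goes with the labels. In bulk RNA, fewer cells of a type and less RNA per cell cannot be told apart. Of 13 fibroblast markers, 12 had a mean of at least 10 normalized counts, with a summed level between 1345170 and 1369110 in wt and between 940867 and 947726 in Top2β-null cells, and Lum was near 0. The fibroblast markers went both ways, with 4 called higher by the cut-offs explained further on (Thy1, Pdgfra, Pdgfrb and Dcn), 3 called lower (Col1a1, Col3a1 and Postn) and a median log2 fold change of 0.18. The summed leukocyte markers lay between 2518 and 2578 in wt and between 1414 and 1427 in Top2β-null cells, with Ptprc and Tyrobp near or at 0. Without Cd68, which carried the lower sum and lies near Trp53 on chromosome 11, they lay between 877 and 890 in wt and between 1111 and 1138 in Top2β-null cells. The summed endothelial markers lay between 164 and 167 in wt and between 253 and 259 in Top2β-null cells, and, without Kdr, between 94.9 and 95.6 in wt and between 49.7 and 53.5 in Top2β-null cells.

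p53, the product of Trp53, is a transcription factor that is kept at a low protein level in unstressed cells because MDM2, itself the product of a p53 target gene, marks it for degradation. MDM4 binds and restrains its activation domain. DNA damage and oncogenic signals release p53, which then turns on genes for cell cycle arrest, such as Cdkn1a, and for apoptosis, such as Bbc3 and Pmaip1. Cultured mouse fibroblasts often lose p53 or the Arf product of Cdkn2a when they become immortal, and the RNA level of Trp53 does not by itself give the level or the activity of the protein.

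Trp53 RNA was abundant in wt MEF cells and much lower in Top2β-null MEF cells. The gene lies on the forward strand of chromosome 11, from 69580359 to 69591873 (GRCm38, GENCODE M21). The wt libraries held 57849 and 60438 normalized counts, and the Top2β-null libraries 10394 and 10530. The groups lay far apart, with the Top2β-null mean at 17.7% of the wt mean, which is 5.65-fold lower. The fitted log2 fold change was -2.50 (standard error 0.029, n = 2 per group). Ranked by counts per kb of exon among 25072 genes, Trp53 stood at percentile 98.6 in wt and 91.0 in Top2β-null cells. Among 1105 genes of like level, 9 had a fold change at least as large in either direction, 5 of them lower. Trp53 was chosen with this comparison known, so this count is a description and not a test. The pseudogene Trp53-ps, picked after its values were seen, had a mean of 214 normalized counts in wt and 40.1 in Top2β-null cells (log2 fold change -2.42). Its reads may partly come from Trp53, and its own level is uncertain.

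The other family members were rare. Trp63 encodes p63, the relative of p53 known for its role in stratified epithelia, and lies on chromosome 16. It was counted 4 times in each wt library, and 240 and 237 times in the Top2β-null libraries. The Top2β-null libraries thus held RNA of Trp63 that was almost missing in wt, at a ratio of 61.2. This ratio rests on 8 counts in wt, so it is imprecise. Trp63 passed the low-count filter only through the Top2β-null libraries, so the ratio is given as a description. The level stayed low, with 28.8 counts per kb in Top2β-null MEF cells against 2586 for Trp53. Epithelial markers were not higher beside it. Their summed level was 3166 and 3125 normalized counts in wt and 736 and 728 in Top2β-null cells, and, without Perp, which made up most of it in wt, 770 and 801 in wt and 588 and 594 in Top2β-null cells. Of the 10 markers, 6 had a mean under 10, and Krt5 and Krt14, the keratins of basal epithelium, were near 0 in all libraries. The part of other cell types in the Trp63 level was not tested. Trp73, which encodes p73 and lies on chromosome 4, had 0 counts in each library but 1, a Top2β-null library with 1 count. At this depth Trp73 RNA was not detectable above the floor of 3 counts per library. Trp73os, which shares 280 exonic bases with Trp73 on the opposite strand, had 1 count in all.

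The MDM genes moved much less than Trp53. Mdm2, the E3 ligase of p53 on chromosome 10, had 7389 and 7187 normalized counts in wt and 5673 and 5553 in Top2β-null cells. Both Top2β-null libraries lay below both wt libraries, at 77.0% of the wt mean and a log2 fold change of -0.38 (standard error 0.028). Mdm4 on chromosome 1 had 10146 and 9976 normalized counts in wt and 9504 and 9351 in Top2β-null cells. The groups did not overlap, but they lay close, at 93.7% of the wt mean and a log2 fold change of -0.094 (standard error 0.025). With scaling to the total count the log2 fold change of Mdm4 was -0.024, so its small difference depends on the scaling. Mdm2 exceeded Mdm4 per kb of exon in all 4 libraries, although Mdm4 had more normalized counts in each. This order rests on annotated exon lengths of 5.08 kb for Mdm2 and 14.8 kb for Mdm4. The log2 ratio of Mdm2 to Mdm4 per kb was 0.28 lower in the Top2β-null libraries (pooled SD 0.0086), that is 173% against 211% of the Mdm4 level.

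The arrest arm is represented by Cdkn1a, which encodes the cyclin-dependent kinase inhibitor p21 and lies on chromosome 17, from 29090976 to 29100727 on the forward strand. The wt libraries held 1164 and 1044 normalized counts and the Top2β-null libraries 386 and 410. No Top2β-null library came near a wt library. The mean was 36.1% of wt, 2.77-fold lower, with a log2 fold change of -1.47 (standard error 0.073). An annotated gene on the opposite strand, AC167363.2, shares 273 exonic bases with Cdkn1a, which are 7.68% of its exonic length. Its mean was far below that of Cdkn1a, at 104 normalized counts in wt and 27.7 in Top2β-null cells. Its log2 fold change was -1.90, and its mean count was too low for a call. The library kit keeps the strand, but the strand setting of the counting is not given in the sources used here, so a share of these reads may belong to either gene.

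In the apoptosis arm, Bbc3, which encodes the BH3-only protein PUMA, had 903 and 924 normalized counts in wt and 437 and 444 in Top2β-null cells. The replicates lay within a few percent of each other, and the groups were 2.08-fold apart (log2 fold change -1.05, standard error 0.065). With scaling to the total count its log2 fold change was -0.98. Pmaip1, which encodes the BH3-only protein NOXA, had 1362 and 1423 normalized counts in wt and 402 and 414 in Top2β-null cells. It differed most among the targets, by 3.41-fold (log2 fold change -1.77, standard error 0.063). Eda2r, a receptor of the TNF receptor family on the X chromosome, had 609 and 692 normalized counts in wt and 252 and 258 in Top2β-null cells. It was 2.55-fold lower (log2 fold change -1.35, standard error 0.088), and its wt replicates were the farthest apart among the targets beside those of Cdkn1a. Zmat3, a zinc finger protein that binds RNA, is not among the apoptosis genes compared with Cdkn1a below. It had 7144 and 7058 normalized counts in wt and 5689 and 5916 in Top2β-null cells. Its groups did not overlap, but the difference was 1.22-fold (log2 fold change -0.29, standard error 0.029).

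**Figure D1:**
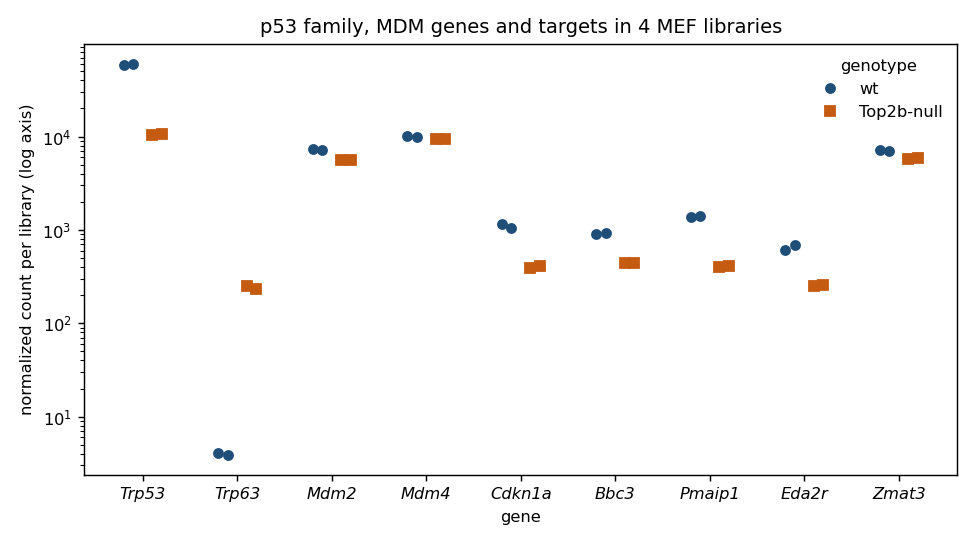
Normalized counts per library (log axis) of 9 of the 10 genes in wt (circles) and Top2β-null MEF cells (squares), 2 libraries each. Trp73, with at most 1 count in a library, is not drawn. The mean of Trp53 is 59143 in wt and 10462 in Top2β-null cells, Cdkn1a, Bbc3, Pmaip1 and Eda2r differ by less, Mdm2, Mdm4 and Zmat3 lie close together, and Trp63 alone is higher in the Top2β-null libraries.

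All 8 of the lower genes, and Trp63 in the other direction, had libraries that did not overlap between genotypes. This was common in these data, since among the 25085 genes tested 41.5% had lower and 40.4% had higher libraries in Top2β-null MEF cells without overlap. Genes are called higher or lower here by the cut-offs of the study's methods, namely an adjusted p below 0.05 (here from edgeR), a log2 fold change beyond 1 in either direction and a mean of more than 100 normalized counts. Across all genes tested, 5.25% were called lower and 5.52% higher, and with the adjusted p alone 33.7% were lower and 32.8% higher. Among the members, 5 met these cut-offs as lower (Trp53, Cdkn1a, Bbc3, Pmaip1 and Eda2r) and 1 as higher (Trp63). Bbc3 lay at the cut-off and did not meet it with scaling to the total count, which left 4. Trp63 passed the low-count filter and the mean of 100 only through the Top2β-null libraries, so it could only be called higher. The members were chosen with this contrast known, so nothing is read from their count. The median log2 fold change of all genes tested was -0.0058. That of the members, -1.05, follows in part from their choice, and nothing is read from it either.

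The arrest and apoptosis arms were set against the Trp53 level within each library, as log2 ratios of counts per kb, which need no scaling between libraries. Each of the targets differed by less than Trp53, so each ratio was higher in the Top2β-null libraries. For Cdkn1a the log2 ratio to Trp53 was -5.45 and -5.67 in wt and -4.56 and -4.50 in Top2β-null cells, a difference of 1.03 (pooled SD 0.115). In other words, Cdkn1a stood at 2.12% of the Trp53 level per kb in wt and at 4.33% in Top2β-null cells. The ratio of Bbc3 was -5.07 and -5.10 in wt and -3.64 and -3.64 in Top2β-null cells, a difference of 1.45 (pooled SD 0.0151). The ratio of Pmaip1 was -4.84 in both wt libraries, against -4.13 and -4.10 in the Top2β-null libraries, the smallest difference among the targets at 0.73. Eda2r differed by 1.15, Mdm2 by 2.12, Zmat3 by 2.21 and Mdm4 by 2.40. Relative to Trp53, the smallest shifts were those of Pmaip1, Cdkn1a, Eda2r and Bbc3, and none of these genes was lower by as much as Trp53.

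The apoptosis genes did not share a direction relative to the arrest gene. The log2 ratio of Bbc3 to Cdkn1a was 0.38 and 0.57 in wt and 0.92 and 0.86 in Top2β-null cells, a difference of 0.42 (pooled SD 0.100). Pmaip1 went the other way, with a ratio to Cdkn1a of 0.61 and 0.83 in wt and 0.44 and 0.39 in Top2β-null cells, a difference of -0.30 (pooled SD 0.112). Without wt replicate 2 this difference was -0.19, and without wt replicate 1 it was -0.41. For Eda2r the ratio to Cdkn1a was -1.66 and -1.32 in wt and -1.35 and -1.40 in Top2β-null cells. These libraries overlapped between genotypes, and the difference of 0.12 was smaller than the spread (pooled SD 0.172). An exact permutation test of 2 against 2 libraries cannot reach a p under 0.33, and these ratios are given without one.

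**Figure D2:**
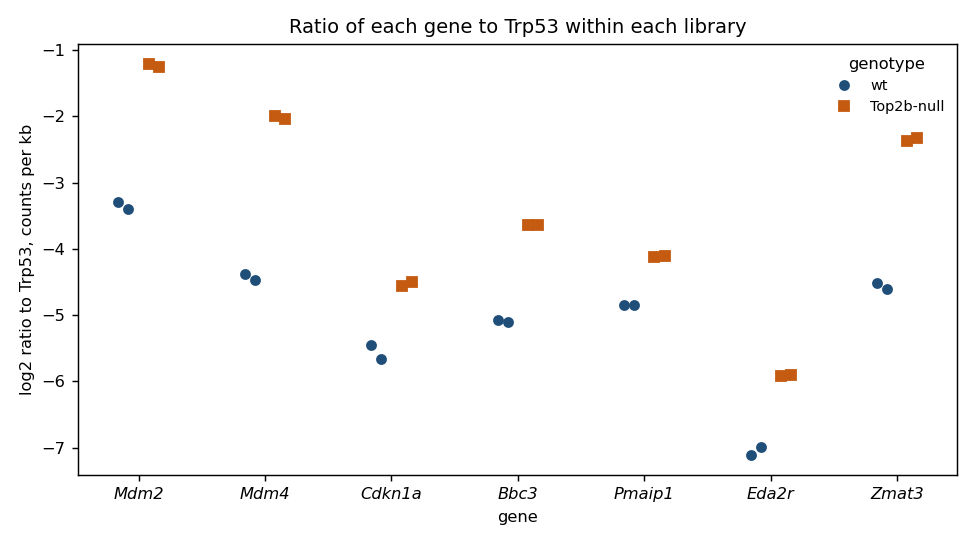
Log2 ratio of counts per kb of each gene to those of Trp53 in the same library, for wt (circles) and Top2β-null MEF cells (squares), 2 libraries each. All 7 genes sit higher relative to Trp53 in the Top2β-null libraries, from 0.73 for Pmaip1 to 2.40 for Mdm4.

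The genes next to Trp53 were also lower, and its surroundings were examined after those values were seen. Of the 26 other genes within 250 kb of the Trp53 start that had a mean normalized count above 100, all 26 were called lower, with a median log2 fold change of -2.09. Called-lower genes followed each other in steps of at most 300 kb from Aloxe3 to 6330403K07Rik, a stretch of 1.91 Mb (chr11:69125896-71033513). The stretch was traced through called-lower genes, so the share called lower inside it follows partly from that rule. It held 85 genes over that level, of which 82 were called lower, 0 higher and 3 neither. The 3 were 2810408A11Rik (log2 fold change 0.24), Neurl4 (-0.94) and Dlg4 (-0.52). The median of the 85 genes was -1.93, a 3.81-fold difference, and their quartiles were -2.17 and -1.55. The leukocyte marker Cd68 (-2.49) is among them. On the rest of chromosome 11, 77 of 1148 genes were called lower and the median was -0.065. A count of 82 and medians between -1.93 and -1.86 also held for DESeq2, for TMM factors computed on genes and for total-count scaling.

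Genes of many functions moved in this stretch. Polr2a, the largest subunit of RNA polymerase II, had 120400 and 122140 normalized counts in wt and 29125 and 30325 in Top2β-null cells. Eif4a1, a helicase of translation initiation, had 277674 and 275725 in wt and 66457 and 68491 in Top2β-null cells. Kdm6b, a histone demethylase, had a log2 fold change of -1.95, and Chd3, a chromatin remodeller, of -1.79. Wrap53, which starts 103 bases before Trp53 in the opposite direction and encodes a telomerase and Cajal body protein, had 3343 and 3332 normalized counts in wt and 959 and 925 in Top2β-null cells (log2 fold change -1.83, adjusted p = 6.2e-15 from edgeR). Polr2a, Eif4a1, Kdm6b and Chd3 were picked after their values were seen.

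Trp53 was lower than most, but not all, of its neighbours. In the stretch, 11 genes had a lower log2 fold change, and that of Trp53 was 0.58 below the median of the others. The log2 ratio of Trp53 to the summed counts of the other genes of the stretch was -5.03 and -4.98 in wt, against -5.66 and -5.68 in the Top2β-null libraries. Trp53 was thus also lower relative to its surroundings. No DNA was measured, and the copy number of the stretch was not tested.

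**Figure D3:**
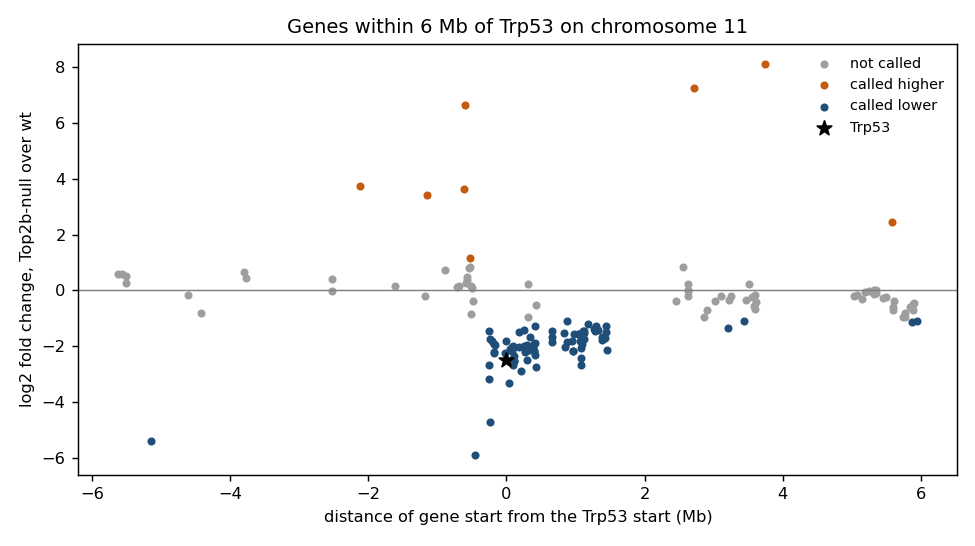
Log2 fold change (Top2β-null over wt) of genes with a mean normalized count above 100 against the distance of their start from that of Trp53, in Mb, over 6 Mb on each side. The star is Trp53, and colours mark genes called lower, called higher or not called. A block of 82 called-lower genes, Trp53 included, lies around 0 Mb. On one side the next gene drawn, Per1, lies at -0.49 Mb, and on the other side no gene is drawn between 1.45 and 2.46 Mb.

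Divided into 1-Mb bins, the genome had 586 bins with at least 10 genes of a mean normalized count above 100. The bin of chromosome 11 from 69 to 70 Mb, which holds Trp53, had the lowest median of all at -2.03, with 45 of 56 genes called lower. The next bin, from 70 to 71 Mb, had a median of -1.68, the third lowest, and 33 of its 34 genes were called lower. Medians below -1 occurred in 10 bins in all. Around the other members, the medians of the genes within 1 Mb lay between -0.52 (Mdm2) and 1.79 (Trp63). Within 1 Mb of Cdkn1a, 33 genes had a median of -0.14, and none of them was as low as Cdkn1a, while chromosome 17 as a whole had a median of -0.46. Within 250 kb of Cdkn1a, 5 genes over that level ranged from -0.67 to -0.18, with a median of -0.39 and 0 called. The median was 0.11 around Bbc3 (29 genes), 0.26 around Pmaip1 (12 genes), 0.27 around Zmat3 (11 genes) and 0.037 around Mdm4 (24 genes). Eda2r had a single neighbour over that level, at -0.12. The log2 fold change of Mdm2, -0.38, lay beside a median of -0.52 for 13 genes within 1 Mb and of -0.39 for chromosome 10. Around Trp63, 3 of 5 genes were called higher.

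**Figure D4:**
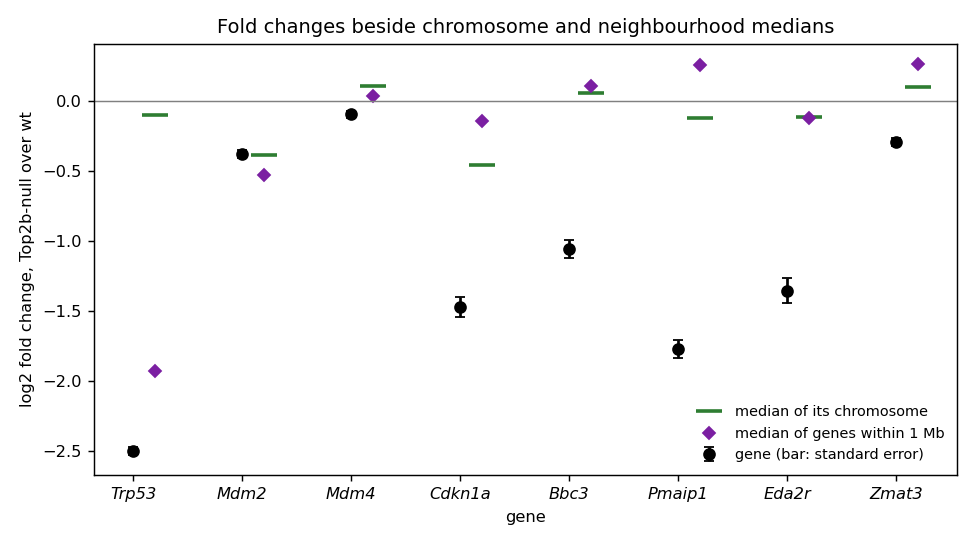
Log2 fold change (Top2β-null over wt) of 8 genes with its standard error (black), beside the median of all other genes with a mean normalized count above 100 on the same chromosome (green) and within 1 Mb (purple). The purple mark stands for 75 genes at Trp53 and for 1 gene at Eda2r. The surroundings are low, at -1.93, for Trp53, whereas Cdkn1a, Bbc3, Pmaip1 and Eda2r lie well below theirs.

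Other genes of the pathway were taken from lists written from textbook knowledge, and edgeR's adjusted p over all 26566 features is given for those named. Of 13 other arrest targets tested, 3 were called lower and 0 higher (7 lower and 2 higher by adjusted p alone, 7 and 3 at an unadjusted p below 0.05, and 0 higher with DESeq2), with a median log2 fold change of -0.15. Plk2, a polo-like kinase, fell from 59743 ± 22.8 to 22932 ± 585 normalized counts (SD, n = 2, log2 fold change -1.38, adjusted p = 2.4e-16 from edgeR). Sesn1, which restrains mTORC1, fell by 1.18 on the log2 scale (adjusted p = 2.7e-12). The repressor E2f7 fell by 0.68 (adjusted p = 7.0e-13). The genes that rose were Pml, the organiser of nuclear bodies, by 0.59 (adjusted p = 1.4e-11), and Plk3 by 0.26 (adjusted p = 1.5e-04). Gadd45a, a damage-response gene outside the naming rule, had a log2 fold change of -0.014 and did not pass the test (adjusted p = 0.86).

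Of 15 other apoptosis targets tested, 1 was called lower and 1 higher (7 lower and 4 higher by adjusted p alone), and the median was -0.066, which is near 0 and was 0.0037 with scaling to the total count. The gene called lower was Perp, a membrane protein of desmosomes, which fell from 2360 ± 51.0 to 141 ± 10.2 normalized counts (log2 fold change -4.07, adjusted p = 5.4e-17 from edgeR). Perp is also an epithelial marker, and the part of other cell types in its change was not tested. Bax, the effector of mitochondrial permeabilisation, fell by 0.48 (adjusted p = 5.3e-09). The gene called higher was Dram1, a regulator of autophagy, which rose from 780 ± 61.2 to 1709 ± 111 normalized counts (log2 fold change 1.13, adjusted p = 1.9e-10). Smaller changes were those of Siva1 (-0.21, adjusted p = 0.00185), Apaf1 (-0.20, adjusted p = 1.3e-04), Trp53inp1 (0.38, adjusted p = 0.00203) and Bid (0.13, adjusted p = 4.6e-04). The death receptor Fas had a log2 fold change of 0.16 and did not pass the test (adjusted p = 0.23). It lies outside the naming rule.

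Targets of metabolism and repair had the lowest median of the lists, -0.50, with 3 of 17 called lower and 0 higher (11 lower and 5 higher by adjusted p alone, as many at an unadjusted p below 0.05, and 0 higher with DESeq2). Kitl, the ligand of the KIT receptor, fell from 19273 ± 20.8 to 3373 ± 44.2 normalized counts (log2 fold change -2.51, adjusted p = 2.0e-19 from edgeR). Ddit4, an inhibitor of mTORC1, fell by 2.37 (adjusted p = 1.2e-14), and Rrm2b, the p53-inducible subunit of ribonucleotide reductase, by 1.03 (adjusted p = 2.2e-12). Rrm2b lay at the cut-off and was not called with scaling to the total count (log2 fold change -0.96) or without Top2β-null replicate 1 (-0.98), which left 2 genes of the list called lower. The glutaminase Gls2 fell by 0.95 (adjusted p = 4.0e-09). In the other direction, Trp53inp2 rose by 0.85 (adjusted p = 1.0e-10), the cytokine Lif by 0.74 (adjusted p = 7.1e-11), the repair nuclease Ercc5 by 0.43 (adjusted p = 1.5e-06) and Tigar, a fructose bisphosphatase, by 0.42 (adjusted p = 1.4e-08).

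**Figure D5:**
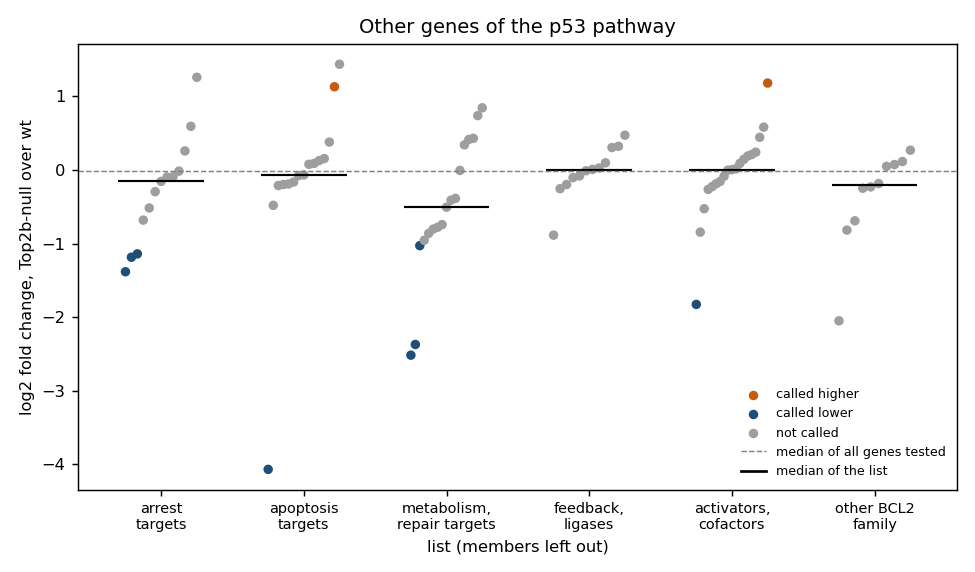
Log2 fold change (Top2β-null over wt) of each tested gene in 6 lists of the p53 pathway, members left out, with the median of each list (black line) and of all genes tested (dashed line). Colours mark genes called higher, called lower or not called. Metabolism and repair targets have the lowest median, -0.50, and the median of feedback genes lies on that of all genes.

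Among 12 other feedback genes and ligases of p53, 0 were called in either direction (4 higher and 5 lower by edgeR's adjusted p alone, and as many at an unadjusted p below 0.05). DESeq2 also called 0, and the median was near 0. Rfwd3, a ubiquitin ligase, fell by 0.88 (adjusted p = 2.5e-14 from edgeR), the ligase Huwe1 by 0.20 (adjusted p = 1.3e-05), and the MDM2-binding ribosomal proteins Rpl11 by 0.25 (adjusted p = 1.1e-06) and Rpl5 by 0.10 (adjusted p = 0.00252). The genes that rose were Trim24 by 0.47 (adjusted p = 5.5e-09), the deubiquitinase Usp10 by 0.32 (adjusted p = 1.4e-08), Rchy1 by 0.31 (adjusted p = 1.5e-06) and Cop1 by 0.099 (adjusted p = 0.00234). Ppm1d, the phosphatase WIP1 and a p53 target itself, did not pass the test (0.028, adjusted p = 0.66) and was added outside the naming rule.

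Of 19 activators and cofactors tested, 1 was called lower (Wrap53, in the stretch of chromosome 11) and 1 higher, with 7 lower and 7 higher by adjusted p alone and a median of 0.0061. Hipk2, a kinase of p53, rose from 6965 ± 226 to 15811 ± 57.6 normalized counts (log2 fold change 1.18, adjusted p = 2.0e-15 from edgeR). The deacetylase Sirt1 fell by 0.84 (adjusted p = 4.2e-13) and Daxx by 0.26 (adjusted p = 2.3e-05). Ppp1r13b, which encodes ASPP1, rose by 0.58 (adjusted p = 1.2e-06), the acetyltransferase Crebbp by 0.45 (adjusted p = 1.1e-10) and Trp53bp2, which encodes ASPP2, by 0.24 (adjusted p = 6.0e-05). Cdkn2a, whose Arf product binds MDM2, had a mean of 5108 ± 47.9 normalized counts in wt and 3549 ± 19.7 in Top2β-null cells (log2 fold change -0.53, adjusted p = 4.3e-10). The table has 1 value for the whole locus, so the Arf and Ink4a transcripts are not separated.

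In the other BCL-2 family genes, 0 of 10 tested were called (6 lower and 1 higher by edgeR's adjusted p alone, 6 and 2 at an unadjusted p below 0.05). DESeq2 also called 0, and the median was -0.21. It was -0.14 with scaling to the total count, and also -0.14 without Top2β-null replicate 2. The pore formers Bak1 and Bok fell by 0.82 (adjusted p = 6.1e-13 from edgeR) and 0.69 (adjusted p = 5.9e-11), Bcl2l11, which encodes BIM, by 0.25 (adjusted p = 5.7e-04) and Bcl2 by 0.23 (adjusted p = 2.4e-04), while the survival gene Mcl1 rose by 0.075 (adjusted p = 0.0256). Cdkn1b, which encodes p27, the relative of p21, was higher in Top2β-null MEF cells. It rose from 5555 ± 205 to 12329 ± 11.4 normalized counts (log2 fold change 1.15, adjusted p = 4.7e-15), opposite to Cdkn1a.

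The promoters of Cdkn1a and Trp53 are shown because Cdkn1a holds the closest match to the p53 consensus among the members and Trp53 is the gene to which the targets were compared. Sequences are those of RefSeq (GRCm38.p6), from 250 bases before to 50 bases after a gene's start, and 7 of the 10 members had one, which leaves Trp63, Pmaip1 and Zmat3. Capitals mark the letters CATGNNNNNNCATG, a form of the core of the p53 response element in which N is any base, and both windows lie on the forward strand, at chr17:29090729-29091028 and chr11:69580109-69580408.
Cdkn1a: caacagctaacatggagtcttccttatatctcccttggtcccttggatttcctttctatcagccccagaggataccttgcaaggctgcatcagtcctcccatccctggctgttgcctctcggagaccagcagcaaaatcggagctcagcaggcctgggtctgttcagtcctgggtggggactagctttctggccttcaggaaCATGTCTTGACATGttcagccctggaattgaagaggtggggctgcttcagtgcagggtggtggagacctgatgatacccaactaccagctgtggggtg
Trp53: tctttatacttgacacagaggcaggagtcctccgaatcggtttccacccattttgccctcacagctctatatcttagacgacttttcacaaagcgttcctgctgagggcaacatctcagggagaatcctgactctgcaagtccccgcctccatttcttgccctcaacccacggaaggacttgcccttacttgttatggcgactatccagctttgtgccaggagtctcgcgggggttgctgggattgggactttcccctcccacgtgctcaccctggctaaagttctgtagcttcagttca

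The core was searched on both strands, which are the same for this motif. It was present in 234 of 32851 promoter windows (0.712%), which belong to 225 of 27025 genes (0.833%). By gene, it was present in 1 of the 7 members, Cdkn1a, and in 0 of 37 other listed targets with a window. The element of Cdkn1a, at chr17:29090928-29090947, has 1 mismatch to the p53 consensus over its 20 bases and begins 51 bases before the upstream of 2 RefSeq starts. The window of the other start, chr17:29093519-29093818, had at best 7 mismatches. A looser search allowed up to 3 mismatches to the consensus while requiring its C and G core bases, and found a match in 1.63% of 27025 genes. By this search 4 of the 7 members had a match, namely Cdkn1a, Trp53, Bbc3 and Trp73, and 6 of the 37 other targets. The best matching 20 bases of each are listed here, with the CATG letters of Cdkn1a in capitals.
Cdkn1a: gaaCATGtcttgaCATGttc
Trp73: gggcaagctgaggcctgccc
Trp53: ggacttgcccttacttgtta
Bbc3: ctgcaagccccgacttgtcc
Trp73 had 2 mismatches, and Trp53 and Bbc3 had 3 each. A match is a description of the letters in these windows. Mdm2, Mdm4 and Eda2r had no match within 3 mismatches in their windows. The windows cover only 250 bases before to 50 bases after a start, so elements elsewhere in a gene were not searched. A link between matches and RNA levels was not tested.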

How the data were processed

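The authors used Trim Galore! for trimming, STAR for alignment to mm10 and TEtranscripts for counting over GENCODE genes and families of repeats. The deposited values are these raw counts, 1 column per library, for 54842 genes and 1562 repeat families. Symbols came from a table of gene names (54409 IDs matched). Positions and exon lengths came from GENCODE M21 on GRCm38 (54495 IDs matched).

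Counts were fitted in R 4.3.3 with edgeR 4.0.16 (quasi-likelihood test, TMM factors over genes and repeats, genotype as the only term) after a filter (10 or more counts in 2 or more libraries). Adjusted p-values are those of Benjamini and Hochberg over 26566 features. Normalized counts are counts divided by the effective size of their library relative to the geometric mean of the 4. The standard error is that of the fitted log2 fold change. The script was tested on simulated data. Replicates differed beyond counting noise, with a chi-square of 3.65 (wt) and 5.07 (Top2β-null) per degree of freedom.

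The members and lists were chosen with earlier results of these data known. Named genes are the members, Top2b, Wrap53, Cdkn2a, genes on the other strand that overlap a member's exon, the genes most like Trp53 and Cdkn1a, and, in each list, up to 4 genes per direction with the largest fold change at an adjusted p below 0.05 and a mean above 100. Others are said to be outside this rule. A listed gene that the rule would name is not reported here. The alternatives were DESeq2 1.42.0, TMM factors computed on genes, total-count scaling, 2 other filters, the replicate number as a block, the adjusted p alone, and leaving out each library. The surroundings of Trp53 and their alternatives were added after the data were seen.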

Additional observations from a re-analysis of the deposited data

How the results depend on the processing

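The log2 fold change of Trp53 was -2.43 with scaling to the total count, which moved the median of all genes to 0.064, and -2.54 to -2.45 with each library left out in turn, where a lone library was assumed to vary like the other group. All 8 lower members stayed lower, and Trp63 higher, in each fit that kept them. Requiring 100 counts per library in all libraries left 816 genes higher and 924 lower, and with the adjusted p alone 8218 and 8445. By that rule the counts higher and lower were 2 and 7 for arrest targets, 4 and 7 for apoptosis targets, 5 and 11 for metabolism and repair, 4 and 5 for feedback genes, 7 and 7 for activators and cofactors, and 1 and 6 for the BCL-2 family. With scaling to the total count the median of arrest targets was -0.084 and that of apoptosis targets 0.0037, and the latter was -0.023 without Top2β-null replicate 2. The log2 ratio of Eda2r to Cdkn1a ran from -0.050, without wt replicate 1, to 0.29. The 82 genes called lower around Trp53 became 80 to 82 with each library left out.

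With the replicate block the log2 fold change of Trp53 was -2.50 and no call on a list changed in number. The numbers do not pair the samples: deviations of same-numbered libraries from their group means correlated at 0.0207 over 17952 features. With 2 libraries per genotype the spread is poorly known, and depth limits Trp73 and Trp63 in wt.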

Other observations

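By the distance between log2 normalized counts centred over the 4 libraries, the genes most like Trp53 among 16656 were 2900026A02Rik (distance 0.028) and Aldh2 (0.036), both on chromosome 5, and Kctd11 (0.042), which lies in the stretch around Trp53. Aldh2, a mitochondrial aldehyde dehydrogenase, had 26084 and 26556 normalized counts in wt and 4556 and 4727 in Top2β-null MEF cells. The genes most like Cdkn1a were the antisense gene 1500015A07Rik (0.058), Socs2, a suppressor of cytokine signalling (0.067), and Peli2, a ubiquitin ligase (0.067). Socs2 had 1343 and 1277 normalized counts in wt and 471 and 493 in Top2β-null MEF cells. With 4 libraries in 2 groups, these distances mostly measure an alike fold change.

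The genes and bins that follow were picked after their values were seen. Trp53cor1, a noncoding RNA next to Cdkn1a that is a p53 target, had 97.9 and 129 normalized counts in wt and 46.6 and 68.3 in Top2β-null MEF cells (log2 fold change -0.98, adjusted p = 0.00115 from edgeR). The pseudogene Mdm4-ps did not pass the test (log2 fold change -0.35, adjusted p = 0.25 from edgeR). Outside chromosome 11, the lowest 1-Mb bin was that of chromosome 8 from 110 to 111 Mb, with a median of -1.83 and 13 of 15 genes called lower. The highest was chromosome 12 from 109 to 110 Mb, with a median of 9.24 and 10 of 10 genes called higher.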
